A study of Homo sapiens with 22 samples.

Results

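The genes described here encode the proteins of the cytoplasmic ribosome. They were chosen by symbol, as RPL or RPS followed by a number with or without a paralog suffix, together with RPLP0, RPLP1, RPLP2 and RPSA. The rule found 85 of the 58870 genes listed in the tables of the siRNA experiment and 87 of the 57820 genes in those of the actinomycin D experiment. In both, 77 were canonical ribosomal protein genes, 46 of the large (60S) subunit and 31 of the small (40S) subunit. The others carried an L-type suffix and are called paralog-like here, among them RPL3L, RPL7L1, RPL10L, RPL22L1, RPL26L1, RPL36AL, RPL39L and RPS27L in both, and RPS10L in the actinomycin D tables. The rule left out ribosomal proteins under other symbols, such as FAU.

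A ribosome holds one copy of nearly every ribosomal protein, and its subunits are put together from these proteins and ribosomal RNA in the nucleolus. Most vertebrate ribosomal protein mRNAs are short, abundant and long-lived, and begin with a C followed by an unbroken run of C and U, the 5′ terminal oligopyrimidine (TOP) tract, through which the mTOR pathway and the RNA-binding protein LARP1 control their translation. Staufen1, the product of STAU1, is a double-stranded RNA-binding protein that takes part in mRNA transport, translation and a decay pathway named after it. Actinomycin D binds DNA and blocks transcription, so the mRNA that remains after a block reflects what was made before it.

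The first experiment used LS180, a colorectal cancer line, treated over a pair of 72 h periods with siRNA that was either a control (siCTRL) or aimed at STAU1 (siSTAU1), with n = 2 polyA RNA libraries per group. The second used LS180 and HCT116, another colorectal cancer line, without siRNA, at 0, 2 and 4 h of 5 µg/ml actinomycin D, with n = 3 total RNA libraries per line and time. Whether the libraries of a group stem from cultures grown apart is not stated in the labels, and the p-values cover the spread among these libraries alone, which may be technical. The 0 h libraries are the only controls of the drug series. The experiments differ in RNA selection and genome build, and levels were not compared between them.

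Library totals were 23.7 to 26.7 M counts in the siRNA experiment and 47.8 to 61.4 M in the actinomycin D experiment (M, mega). Levels are given as counts scaled to a common library size (CPM). STAU1 stood at 144 and 141 CPM with siCTRL and at 9.70 and 9.17 CPM with siSTAU1, a 15.1-fold lower level (edgeR adjusted p = 2.15e-12) in the direction the labels name. All 11 colorectal epithelial markers examined were present in LS180, with a summed level of 3910 to 4190 CPM at 0 h, and 1 of the 11 averaged under 1 CPM there. In HCT116 their sum was 3260 to 3430 CPM, 5 of the 11 averaged under 1 CPM, and CEACAM5 and CDX1 had no count at 0 h. The immune markers (5 genes) summed to 18.9 to 20.5 CPM in siCTRL and 19.3 CPM in both siSTAU1 libraries, and to at most 1.81 CPM in any actinomycin D library. In each siRNA group 3 of these 5 averaged under 1 CPM, and CD3E had no count. Fibroblast markers (5 genes) summed to at most 8.74 CPM and endothelial markers (4 genes) to at most 0.606 CPM in any library. In such bulk libraries, fewer cells of a kind and less RNA per cell cannot be told apart. Among the LS180 libraries at 4 h those numbered 2 and 3 stood apart from that numbered 1, with TMM scaling factors of 0.864 and 0.812 against 1.00.

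The TOP tract was looked for in the RefSeq promoter windows (GRCh38.p14), which hold 68 of the ribosomal protein genes at 84 listed starts. A C at the start followed by further C or T to at least 5 letters, read on the gene's strand only, was found at 47 of the 84 starts (56.0%), each of a different gene, against 4.07% of the 35116 starts of all genes in the table. A C at the start alone was found at 63.1% of their starts and 14.7% of all starts. Allowing the tract to begin within 5 bases of the listed start, 55 of the 68 genes had it, 70.2% of starts against 21.1% of all. The windows below run from 12 bases before the listed start through the first 18 bases from it, and show a selection of the genes described below, with every listed start of RPL11 and RPL15. Capitals mark the run of C and T that begins at the start; a window with no capitals has another base there.
RPL31 (chr2:101002277-101002306, plus strand): atccttcgcgctCTTCCTTTCCaacttgga
RPL11 (chr1:23691794-23691823, plus strand): aagctccgctttCTCTTCCTgctctccatc
RPL11 (chr1:23691767-23691796, plus strand): ctcctggcccataaggccctcggccggaag
RPL15 (chr3:23916533-23916562, plus strand): gctggggcctgcTggaggagcttcacgcag
RPL15 (chr3:23917086-23917115, plus strand): cggaaagagggtggctgaggtgggggagga
RPL15 (chr3:23917120-23917149, plus strand): aaaaggcattgtgggagtacagctctttcc
RPS26 (chr12:56041906-56041935, plus strand): acacataacctcgattttcttccgccatcc
RPL26 (chr17:8383176-8383205, minus strand): cagcgtgtagttCTCTTCCCTTTTgcggcc
RPS27 (chr1:153990750-153990779, plus strand): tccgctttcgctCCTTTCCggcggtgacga
RPL13A (chr19:49487596-49487625, plus strand): caaaacctcctcCTTTTCCaagcggctgcc
RPS6 (chr9:19380219-19380248, minus strand): cggaagttggccCTCTTTTCCgtggcgcct
RPL41 (chr12:56116621-56116650, plus strand): aacttcgcctttCTCTCggccttagcgcca
RPL36A (chrX:101390999-101391028, plus strand): gcctcgcggtttCTTTCTTTCCgcgccgat
RPL36AL (chr14:49620609-49620638, minus strand): tttcttccctttCCTgttaggcgagagctg
RPL22 (chr1:6199578-6199607, minus strand): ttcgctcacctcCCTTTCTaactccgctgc
RPL22L1 (chr3:170870178-170870207, minus strand): ggccgtagcttcCTCTCTgctctcgcggcc
RPS27L (chr15:63157460-63157489, minus strand): ttgatgccgagcgcagatcgcttgcagctt
RPL7L1 (chr6:42879604-42879633, plus strand): aagtgcggcgccgtagctaggagcggacgc
Canonical genes such as RPL31, RPL26 and RPL36A have runs of 10, 12 and 10 letters, while RPL15, RPS26 and the other start of RPL11 have no TOP letters at the listed starts. Among the paralog-like genes RPL22L1 has a run of 6, RPL36AL stops after 3, and RPS27L and RPL7L1 have none. The letters are a description of the listed start, and a start used in these cells was not measured.

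Ribosomal protein genes took 8.14% and 8.39% of all counts in the siCTRL libraries and 8.97% and 9.52% in the siSTAU1 libraries. In LS180 their share was 7.84 to 8.14% at 0 h, 8.90 to 9.40% at 2 h and 9.71 to 10.5% at 4 h of actinomycin D. In HCT116 it was 6.65 to 7.41% at 0 h, 7.41 to 8.40% at 2 h and 8.33 to 8.54% at 4 h. The groups did not overlap in the siRNA experiment or among the LS180 times, while in HCT116 the highest 0 h and the lowest 2 h library nearly met and the 2 h and 4 h groups overlapped, the first 2 h library (8.40%) lying above the lowest 4 h library (8.33%). Per length, by the deposited TPM (transcript counts divided by length and scaled to a fixed total), the highest members with siCTRL were RPS18 at 6722 ± 324, RPS2 at 6460 ± 246, RPL41 at 6165 ± 303 and RPS27 at 5913 ± 95.8 TPM (SD, n = 2). Neighbours in this order did not differ beyond their spread. In LS180 at 0 h RPL41 led at 1979 ± 122 TPM and RPL37A followed at 1935 ± 140 TPM, while in HCT116 RPL37A stood at 1518 ± 154 and RPS2 at 1469 ± 87.9 TPM (SD, n = 3). RPL41 stood at 1342 ± 119 TPM there. Its place in this order is uncertain, as its pseudogene row RPL41P1 held 31.2 to 33.7% of their joint counts in the 0 h libraries. At the low end RPL10L, a copy of RPL10 known from testis, had no count in any library. RPL3L, known from muscle, had no count in the siRNA libraries and 38 counts over the 18 actinomycin D libraries, and RPS10L had 11. These genes were not tested, which left 83 members tested in the siRNA experiment and 84 in the actinomycin D experiment.

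**Figure D1:**
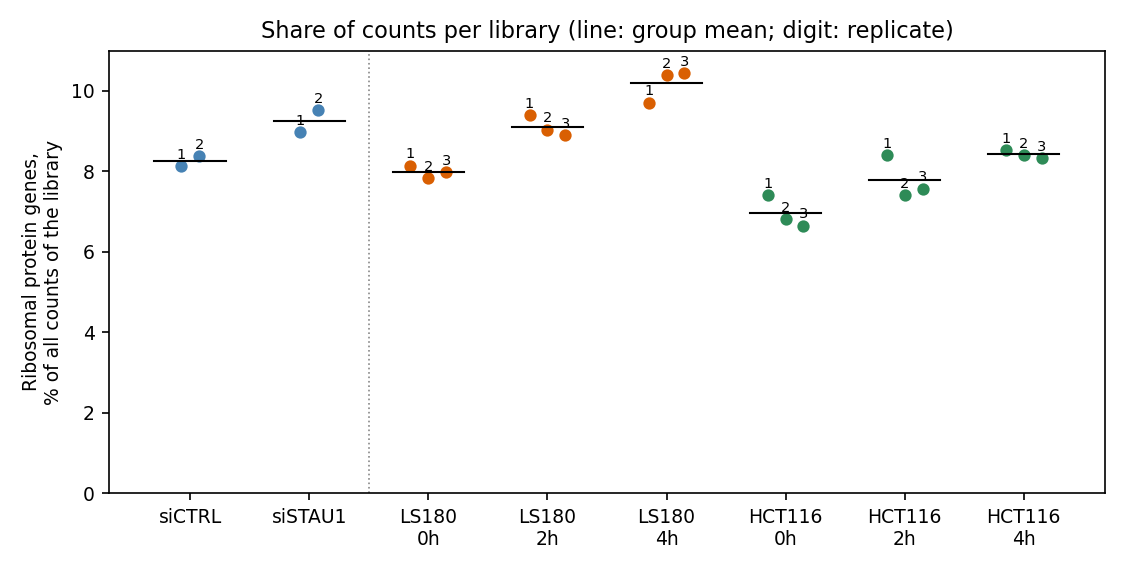
Percentage of each library's counts assigned to ribosomal protein genes (y axis) by group (x axis), with 1 point per library, its replicate number beside it and a line at the group mean. The siSTAU1 libraries (8.97% and 9.52%) lie above the siCTRL libraries, and the share is higher at 4 h than at 0 h of actinomycin D in every library of both lines.

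With siSTAU1, 62 of the 83 tested ribosomal protein genes were higher than with siCTRL and 1 was lower, where 23.0% of all 14073 genes tested were called higher and 23.0% lower. The shifts were small: the median log2 fold change was 0.19, a 1.14-fold difference, against 0.00 for all genes. By subunit, 32 of 46 large-subunit genes were higher (median 0.20) and 27 of 31 small-subunit genes (median 0.20), and the difference between subunits was not tested. RPL41, the smallest ribosomal protein, had the largest shift, from 1329 and 1413 CPM to 1827 and 1953 CPM (0.46 ± 0.05 SE on the log2 scale, edgeR adjusted p = 1.55e-05). RPL15 stood at 1300 and 1396 CPM with siCTRL and at 1696 and 1791 CPM with siSTAU1 (0.37, adjusted p = 6.8e-05). RPL31, at the mouth of the exit tunnel, went from 608 and 657 CPM to 769 and 845 CPM (0.35, adjusted p = 0.000172). RPS2, of the small subunit's entry region, went from 3634 and 3783 CPM to 4521 and 4904 CPM (0.35, adjusted p = 0.000276). In each of these genes both siSTAU1 libraries lay above both siCTRL libraries.

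The stalk, which recruits translation factors, was mixed: RPLP0 rose by 0.29 (adjusted p = 0.000843), while RPLP1 stood at 0.15 (adjusted p = 0.0504) and RPLP2 at −0.05 (adjusted p = 0.321). RPLP2 had 671 and 654 CPM with siCTRL and 624 and 656 CPM with siSTAU1, with overlapping groups. On the TPM scale, where 43.4% of all genes lay lower without overlap, RPLP2 had 3196 and 3145 against 2824 and 2837 TPM. Of the proteins that bind 5S RNA, RPL11 rose by 0.20 (adjusted p = 0.0014) and RPL5 had a difference of 0.10 (adjusted p = 0.0787). RPSA, the laminin receptor homolog, rose by 0.21 (adjusted p = 0.00517), and RPS6, the substrate of S6 kinase, by 0.16 (adjusted p = 0.0119). RPS27A, made as a fusion with ubiquitin, stood at 0.05 (adjusted p = 0.41).

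RPL7L1, a relative of RPL7 that takes part in ribosome assembly, was the 1 gene that fell. It had 243 and 236 CPM with siCTRL and 214 and 206 CPM with siSTAU1 (−0.19 ± 0.04 SE, adjusted p = 0.00106), while its parent RPL7 rose by 0.16 (adjusted p = 0.0107). RPL22L1 rose by 0.11 (adjusted p = 0.0169) beside RPL22, whose groups overlapped at 370 and 364 against 351 and 364 CPM (−0.04, adjusted p = 0.411). On the TPM scale, where 43.4% of all genes lay lower without overlap, RPL22 had 464 and 463 against 393 and 370 TPM. RPL22L1 had 984 and 970 against 968 and 961 TPM. The isoform-weighted length of RPL22 was 1231 and 1234 bases with siCTRL and 1309 and 1374 bases with siSTAU1. RPS27L, a p53-responsive copy of RPS27, went from 86.7 and 92.6 CPM to 107 and 110 CPM (0.27, adjusted p = 0.000276), and RPS27 rose by 0.21 (adjusted p = 0.000982). RPL36AL was called at 0.09 (adjusted p = 0.0416) and its parent RPL36A at 0.18 (adjusted p = 0.00118). RPL26L1 and RPL39L were not called, at −0.08 (adjusted p = 0.333) and 0.19 (adjusted p = 0.464), while RPL26 rose by 0.23 and RPL39 by 0.34. Both RPL3 and RPL10, parents of the unexpressed RPL3L and RPL10L, rose, by 0.17 and 0.22.

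Other short transcripts were also called higher more often than lower. Among genes outside the family with a length under 1000 bases, 30.9% were higher and 4.05% lower with siSTAU1, with a median of 0.16, while the 75 ribosomal protein genes of that length had a median of 0.20 and 57 calls higher. Among other genes of 1000 bases or more, 21.6% were higher and 25.8% lower, with a median of −0.02. The part of length in the shift was not tested beyond a fit with the deposited effective lengths as an offset, which called 58 members higher and 2 lower. On the TPM scale, which is divided by length and scaled to a fixed total, both siSTAU1 libraries lay above both siCTRL libraries for 50 of 83 members (23.5% of all genes) and below them for 10 (43.4% of all genes), against 72 and 2 on the CPM scale (36.7% and 36.9%). The count rested on few libraries: without the first siCTRL library 22 members were called higher. The libraries differed in size of shift too, with a canonical median of 0.15 in the first siSTAU1 library and 0.25 in the second, both relative to the siCTRL mean.

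After 4 h of actinomycin D, 80 of the 84 tested ribosomal protein genes were higher than at 0 h in LS180 and 80 in HCT116, and 1 was lower in each line. Among all 17256 genes tested, 26.6% were called higher and 31.1% lower in LS180, and 26.2% higher and 23.7% lower in HCT116. The values are relative to the other RNA of each library, so a higher level after the block means a larger share of what was left. All 77 canonical genes rose in both lines, by 0.33 to 0.82 in LS180 (median 0.58, SD over genes 0.09) and by 0.24 to 0.63 in HCT116 (median 0.41, SD over genes 0.07). The spread over all genes tested was an SD of 1.02 in LS180 and 0.85 in HCT116. That set includes many genes with far fewer counts than the canonical genes, which widens its spread. No SD was taken over genes of like abundance, so the SDs do not measure how uniform the family is. Large and small subunit genes had medians of 0.56 and 0.59 in LS180 and of 0.40 and 0.42 in HCT116. Scaling matters for the size: the median of all genes in LS180 was 0.00 with TMM, 0.12 with RLE size factors and −0.20 with total library size, and the members' median lay 0.58, 0.60 and 0.56 above it.

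**Figure D2:**
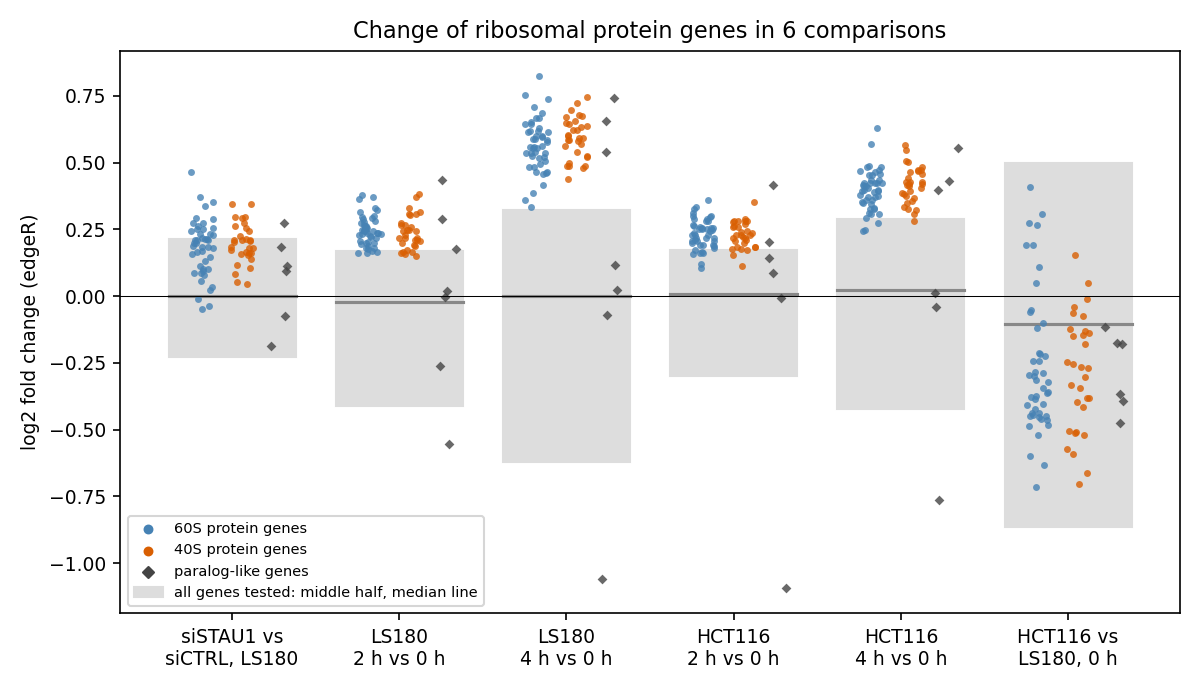
Log2 fold change of each ribosomal protein gene (y axis) in 6 comparisons (x axis), as points for large-subunit, small-subunit and paralog-like genes, over a grey box for the interquartile range of all genes tested with a line at their median. RPL39L is left out of the HCT116 columns, where it had no counts. Canonical genes sit between 0.33 and 0.82 in LS180 at 4 h and between 0.24 and 0.63 in HCT116 at 4 h, while several paralog-like genes lie at or below 0.

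RPL31 had the largest rise in LS180. It had 597, 571 and 597 CPM at 0 h, 817, 766 and 710 CPM at 2 h and 870, 1092 and 1160 CPM at 4 h (0.82 ± 0.08 SE at 4 h, edgeR adjusted p = 1.17e-07). In HCT116 it went from 456, 434 and 412 CPM to 655, 637 and 640 CPM at 4 h (0.57 ± 0.08, adjusted p = 1.86e-05). RPL11, which with RPL5 and 5S RNA can bind MDM2, led in HCT116, from 593, 569 and 524 CPM to 844, 869 and 893 CPM (0.63 ± 0.08, adjusted p = 1.59e-06). In LS180 RPL11 rose by 0.74 (adjusted p = 1.17e-07). No 4 h library of these genes overlapped a 0 h library of its line. RPL26 rose by 0.75 in LS180 and 0.46 in HCT116. RPL5 rose by 0.51 and 0.37, RPS6 by 0.56 and 0.35, RPSA by 0.59 and 0.46, and RPS27A by 0.66 and 0.43. The stalk genes, unequal with siSTAU1, were close to each other here, at 0.54 (RPLP0), 0.58 (RPLP1) and 0.56 (RPLP2) in LS180 and 0.42, 0.42 and 0.47 in HCT116. RPL28 had the smallest rise of the canonical genes in both lines, from 294, 303 and 274 CPM to 334, 354 and 409 CPM in LS180 (0.33, adjusted p = 0.000746) and by 0.24 in HCT116 (adjusted p = 0.0105); it was singled out after its values were seen.

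The LS180 libraries at 4 h were uneven. Relative to the 0 h mean, the canonical median was 0.31 in the first library, 0.65 in the second and 0.74 in the third, while the HCT116 libraries at 4 h lay at 0.38, 0.41 and 0.42. With the LS180 4 h libraries numbered 2 and 3 left out, 80 members were called higher, the lone 4 h library being assumed to vary like the other groups, with a median of 0.44 against 0.10 for all genes. Without the first, the median was 0.81. The scaling was computed anew in each of these fits, so 0.44 and 0.81 are not on the scale of the full fit. On the TPM scale the order of the LS180 libraries turned: the summed level of all members was 86318.5, 74507 and 68553.7 TPM in the 4 h libraries numbered 1, 2 and 3, against 58888.2 to 68840.4 TPM at 0 h. For single members in LS180, all 4 h libraries lay above all 0 h libraries for 80 of 84 on the CPM scale (29.9% of all genes, with 33.5% below) but for 37 of 84 on the TPM scale (2.74% of all genes). In HCT116 these counts were 80 by CPM (28.4% of all genes, with 26.0% below) and 79 by TPM (25.7% of all genes). Abundant transcripts outside the family were also higher at 4 h: of 1647 other genes averaging at least 100 CPM, 69.2% were called higher in LS180 (median 0.31) and 71.5% in HCT116 (median 0.28). The part of abundance in the family's shift was not tested.

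At 2 h in LS180 52 of 84 members were higher and 1 lower, where 13.5% of all genes were higher and 23.9% lower, and the members' median was 0.24. In HCT116 50 were higher and 1 lower, where 13.8% of all genes were higher and 17.1% lower, with a median of 0.23. Of 1647 other genes averaging at least 100 CPM, 45.1% were called higher in LS180 (median 0.17) and 47.7% in HCT116 (median 0.18). Among the 80 members at that level 63.7% and 61.3% were called higher. The part of abundance in the 2 h shift was not tested. RPS27L had the largest rise at 2 h in both lines, 0.43 in LS180 (adjusted p = 0.000877) and 0.42 in HCT116 (adjusted p = 0.00185). RPS27 rose by 0.37 and 0.35, RPL31 by 0.38 and 0.33, and RPL11 by 0.36 in both lines. The 2 h and 4 h comparisons of a line share their 0 h libraries. The 2 h counts moved with single libraries: in LS180 to 32 without the 0 h library numbered 2 and 29 without the 2 h library numbered 1, and in HCT116 to 27 and 23 without the 0 h libraries numbered 2 and 3 and to 21, 29 and 22 without each 2 h library in turn. RLE size factors called 80 members higher in LS180 at 2 h and DESeq2 called 82.

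RPL36AL, RPL7L1 and RPL39L were among the tested genes that did not rise at 4 h in either line, and RPL39L had no counts in HCT116. RPL36AL, a retrocopy of the X-linked RPL36A, had 186, 182 and 196 CPM at 0 h and 167, 183 and 188 CPM at 4 h in LS180 (−0.07 ± 0.05 SE, adjusted p = 0.264). In HCT116 it had 162, 168 and 169 CPM at 0 h and 168, 167 and 167 CPM at 4 h (0.01 ± 0.05, adjusted p = 0.912). Its parent RPL36A rose by 0.67 and 0.48, from 398, 390 and 422 CPM to 528, 683 and 710 CPM in LS180. RPL7L1 was as flat, at 339, 317 and 332 CPM against 319, 347 and 337 CPM in LS180 (0.02, adjusted p = 0.727) and at −0.04 in HCT116 (adjusted p = 0.524), while RPL7 rose by 0.67 and 0.48. Their signs turned with the scaling, to 0.062 for RPL36AL in LS180 with RLE size factors and to −0.18 for RPL7L1 there with total library size. RPL39L, a copy of RPL39 known from testis and cancer, fell in LS180, from 2.20, 2.35 and 2.32 CPM at 0 h to 1.78, 1.48 and 1.42 CPM at 2 h and 1.09, 1.01 and 1.20 CPM at 4 h (−1.06 ± 0.17 SE at 4 h, adjusted p = 0.000135). RPL39 rose by 0.71 there and by 0.49 in HCT116.

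The other paralog-like genes rose as their parents did. RPS27L went from 80.7, 77.0 and 82.9 CPM to 120, 140 and 141 CPM at 4 h in LS180 (0.74, adjusted p = 1.08e-06) and by 0.56 in HCT116, beside 0.72 and 0.55 for RPS27. RPL22L1 rose by 0.66 in LS180 (adjusted p = 3.04e-05) and 0.40 in HCT116 (adjusted p = 0.00414), beside 0.60 and 0.45 for RPL22. RPL26L1 rose by 0.54 and 0.43, beside 0.75 and 0.46 for RPL26. RPL3 rose by 0.52 and 0.37 and RPL10 by 0.46 and 0.41. Neither RPS27L nor RPL7L1 has TOP letters at its listed start, and the former rose while the latter was not called. Over the tested members in the promoter table, the 47 with TOP letters had a median of 0.60 in LS180 and 0.42 in HCT116 at 4 h, and the 20 without had 0.55 and 0.38; this contrast was not tested.

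**Figure D3:**
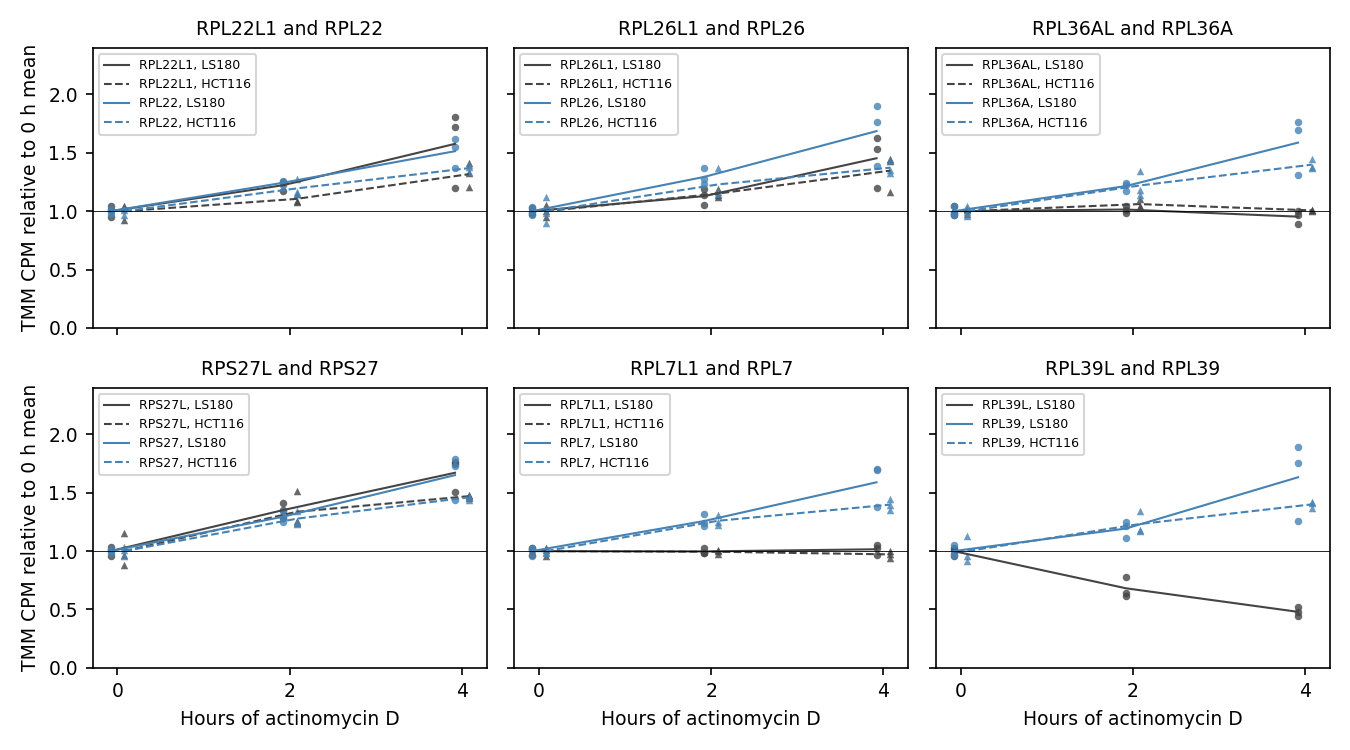
CPM relative to the 0 h mean of the line (y axis) against hours of actinomycin D (x axis) for 6 paralog-like genes (grey) and their parents (blue), with circles and solid lines for LS180, triangles and dashed lines for HCT116, 1 point per library and lines through the means. RPL36AL and RPL7L1 stay near 1 and RPL39L falls, while the parents and the other copies lie above 1 in every 4 h library. RPL39L has no counts in HCT116.

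The number of members called in the line difference of the 4 h change varied with the method. By edgeR 0 of 84 were higher and 1 was lower in HCT116 than in LS180, where 12.3% of all genes had a called positive and 1.33% a called negative difference. At an unadjusted p under 0.05 edgeR gave 0 higher and 3 lower, and DESeq2 with adjustment gave 0 higher and 12 lower. With no filter on low counts edgeR called 63 lower. All 77 canonical genes had a fitted difference below 0, from −0.30 to −0.05 with a median of −0.17, none of them called. That median moved to −0.44 with 82 members called lower without the first LS180 library at 4 h, and the calls were 8, 8 and 13 without the HCT116 libraries at 4 h in turn. Over its line's 0 h mean, the first LS180 4 h library had a canonical median of 0.31. The HCT116 4 h libraries, at 0.38, 0.41 and 0.42, lay above it and below the other LS180 4 h libraries, at 0.65 and 0.74. At 2 h the difference had a median of −0.01, with 0 called higher and 1 lower by edgeR, by DESeq2 and at an unadjusted p under 0.05, against 5.24% and 0.394% of all genes called by edgeR. Across the 77 canonical genes the 4 h changes of the lines had a Pearson r of 0.82 and a Spearman rho of 0.78, against 0.70 and 0.71 across the 17197 genes tested; this is a description across genes, which share length, abundance and base composition and are not independent replicates. Between the siSTAU1 change and the LS180 4 h change, r was 0.05 and rho −0.02 across the same 77 genes, against 0.12 and 0.24 across the 12055 genes tested in both.

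At 0 h, before any block, most ribosomal protein genes were lower in HCT116 than in LS180: 59 of 84 were called lower and 6 higher, where 42.6% of all genes were lower and 33.7% higher. The members' median was −0.32, against −0.10 for all genes. Among other genes under 1000 bases the median was −0.26, with 40.9% lower and 22.8% higher, against −0.33 for the 72 members of that length. Other genes of 1000 bases or more had −0.07, against −0.29 for the 12 members of that length. Other genes averaging at least 100 CPM had 0.04, against −0.31 for the 80 members at that level. The part of length or abundance in this difference was not tested. RPL13A, known from the interferon-activated silencing complex, had 2768, 2754 and 2723 CPM in LS180 and 1850, 1582 and 1597 CPM in HCT116 (−0.71 ± 0.09 SE, edgeR adjusted p = 9.46e-07). RPS6 had 2143, 2122 and 2242 CPM against 1451, 1300 and 1249 CPM (−0.70, adjusted p = 2.47e-06), and RPS26 had 306, 278 and 293 CPM against 178, 190 and 186 CPM (−0.66, adjusted p = 3.65e-07). In each the lines did not overlap. RPL38, a large-subunit protein needed for the translation of some Hox mRNAs, went the other way, at 404, 402 and 412 CPM in LS180 and 541, 553 and 525 CPM in HCT116 (0.41 ± 0.09, adjusted p = 0.000306). RPL12 of the stalk base was also higher, by 0.31 (adjusted p = 0.00112), as were RPL30 at 0.27, RPL13 at 0.27, RPL8 at 0.19 and RPL22 at 0.19; RPL8 and RPL22 were added to complete the 6. With RLE size factors, which put the median of all genes at 0.02, 9 members were higher and 45 lower, and the members' median lay 0.21 below that of all genes with either scaling.

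All 7 tested paralog-like genes had a negative difference and 6 were called, the exception being RPS27L (−0.17, adjusted p = 0.0867). RPL39L was the extreme, with 373 counts over the LS180 libraries at 0 h and 0 in every HCT116 library, which makes it at least 132-fold lower in HCT116 at 0 h, taking 3 counts over all libraries of the group as the floor. RPL22L1 was lower by a log2 value of −0.36 (adjusted p = 0.00449) while its parent RPL22 was higher by 0.19 (adjusted p = 0.00715). RPL22 stood at 315, 305 and 320 CPM in LS180 and 369, 361 and 346 CPM in HCT116, and RPL22L1 at 341, 321 and 352 against 274, 272 and 242 CPM. The pair thus differed in opposite directions, without overlap between the lines. RPL26L1 was lower at −0.39, RPL36AL at −0.18 and RPL7L1 at −0.12 (adjusted p = 0.0391). The value of RPL7L1 turned to 0.0050 with RLE size factors, 0.0049 by DESeq2 and 0.049 with no filter.

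The line difference was also set out by chromosome, and a selection of chromosomes is given here. Of all genes tested, 42.6% were called lower and 33.7% higher, and these shares were not taken per chromosome. On chromosome 8 the 4 members RPL7, RPL8, RPL30 and RPS20 had a median of 0.15, with RPL8 and RPL30 called higher, and the 579 genes tested there had a median of 0.15. On chromosome 3, 9 of 9 members were called lower (median −0.34, all genes there −0.20), and on chromosome 12, 3 of 4 (median −0.53, all genes there −0.07). Chromosome 19 held the most members, of which 8 of 12 were called lower and 0 higher (median −0.28, all genes there −0.01). On chromosome 17 RPL38 was higher and 4 of 6 members lower, at a median of −0.29 where all genes had 0.11. Chromosome 8 was not alone in having members at or above its median. The 3 members on chromosome 16 had a median of −0.01 (all genes there −0.08), with 1 called higher and 1 lower. The 1 member on chromosome 10 stood at 0.15, not called, where all genes had 0.08. The part of the chromosome in the members' values was not tested.

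**Figure D4:**
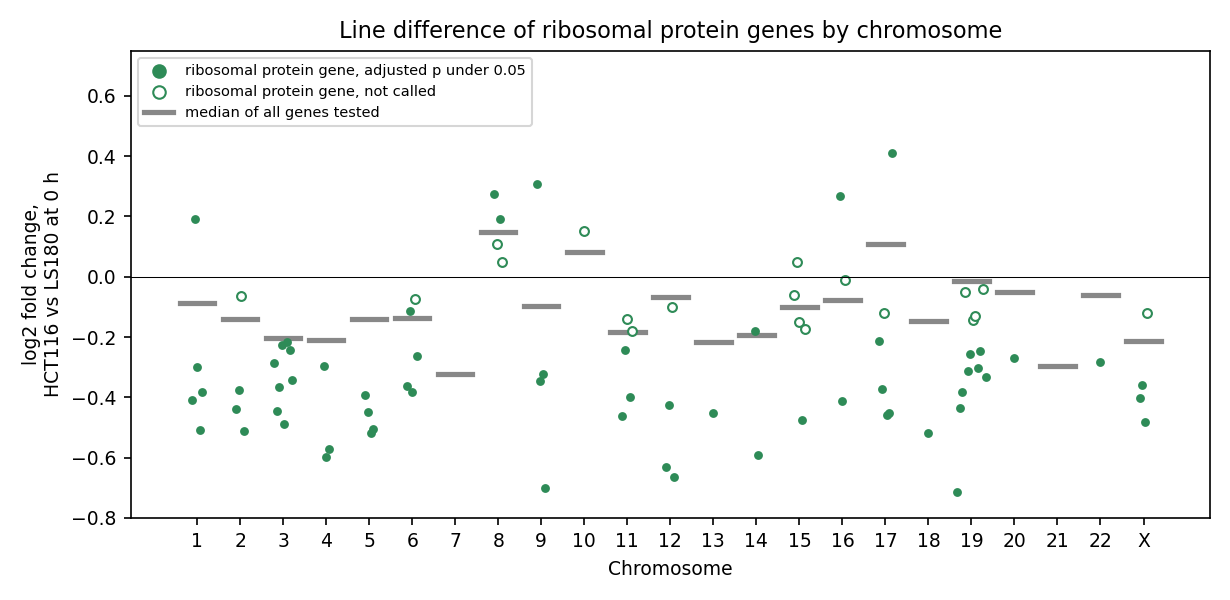
Log2 fold change of HCT116 against LS180 at 0 h (y axis) for each tested ribosomal protein gene except RPL39L, by chromosome (x axis). Filled points passed an adjusted p of 0.05, open points did not, and grey bars are the median of all genes tested on the chromosome. Members on chromosome 8 lie near that chromosome's median of 0.15, while most others lie below their bar.

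The rest of the machinery was read from 5 lists. Other TOP mRNAs (translation factors and FAU, TPT1 and the like) rose with the family at 4 h. In LS180 22 of 23 were called higher (median 0.47), where 26.6% of all genes were. In HCT116 23 of 23 were called higher (median 0.37), where 26.2% of all genes were. Of 1647 genes outside the ribosomal protein family averaging at least 100 CPM, 69.2% were called higher in LS180 (median 0.31) and 71.5% in HCT116 (median 0.28). The part of abundance in the shift of the other TOP mRNAs was not tested. NAP1L1, a histone chaperone, rose by 0.55 and 0.46, and EIF3H, a subunit of initiation factor eIF3, by 0.56 and 0.45. With total library size 18 and 19 of these mRNAs were higher and 1 and 0 lower. With siSTAU1 6 of these 23 were higher and 6 lower (median −0.02), where 23.0% of all genes were called higher and 23.0% lower. TPT1, a growth-related TOP mRNA, rose by 0.36 there (adjusted p = 5.46e-05), and RACK1, a protein of the small subunit named outside the RPS series, by 0.22 (adjusted p = 0.00201). The difference between this list and the ribosomal protein genes was not tested.

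Factors that assemble ribosomes are read against the shares of all genes, which were 23.0% lower and 23.0% higher with siSTAU1, 31.1% and 26.6% at 4 h in LS180, 23.7% and 26.2% at 4 h in HCT116, and 42.6% and 33.7% between the lines at 0 h. With siSTAU1 21 of 43 assembly factors were lower and 7 higher (median −0.13), among them TCOF1, which acts in rDNA transcription, at −0.58 (adjusted p = 1.01e-06), and NOLC1 at −0.48. At 4 h in LS180 21 were lower and 11 higher (median −0.13), although RLE size factors gave 16 lower and 17 higher (median 0.00). PPAN, a large-subunit assembly factor, was at −2.56 (adjusted p = 1.52e-12) and RIOK2, a kinase of late 40S maturation, at −1.75. In HCT116 at 4 h 15 were higher and 14 lower (median 0.07, or −0.05 with total library size), with PPAN at −1.58 and RIOK2 at −0.86. At 0 h 35 of 43 were higher in HCT116 than in LS180 and 2 lower (median 0.47), with BOP1 at 1.31, on the side opposite to most ribosomal protein genes.

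The same shares of all genes apply to the next lists, which are short, and no list was tested against them. Genes for RNA polymerase I and its factors, which make the large ribosomal RNA precursor, were lower at 4 h in 10 of 15 cases in LS180 (1 higher, median −0.54) and 7 of 15 in HCT116 (median −0.13). POLR1C was at −1.47 in LS180 and −0.45 in HCT116, and POLR1B at −1.50 and −0.73. With siSTAU1 5 of 15 were lower and 1 higher (median −0.16), including UBTF at −0.32, and at 0 h 11 were higher in HCT116 and 1 lower (median 0.59). Among 17 genes that control TOP mRNA translation, 8 were lower and 5 higher with siSTAU1 (median −0.07). RPS6KB1, the S6 kinase gene, was at −1.18 ± 0.06 (adjusted p = 1.35e-07) and LARP1 at −0.46 (adjusted p = 3.45e-06). At 4 h this list had 8 higher and 3 lower in LS180 and 9 higher and 3 lower in HCT116 (medians 0.14), with a median of −0.05 in LS180 under total library size, and at 0 h 8 were higher and 7 lower in HCT116. In the list of 10 genes around 5S RNA, RPL5, RPL11 and MDM2, 2 were higher and 4 lower of 9 tested with siSTAU1, 2 and 5 of 10 at 4 h in LS180, 3 and 4 in HCT116, and 4 and 3 between the lines at 0 h. ZNF622, a late 60S factor, was at −2.68 in LS180 and −1.35 in HCT116, and MDM2 at −0.93 and −0.67.

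**Figure D5:**
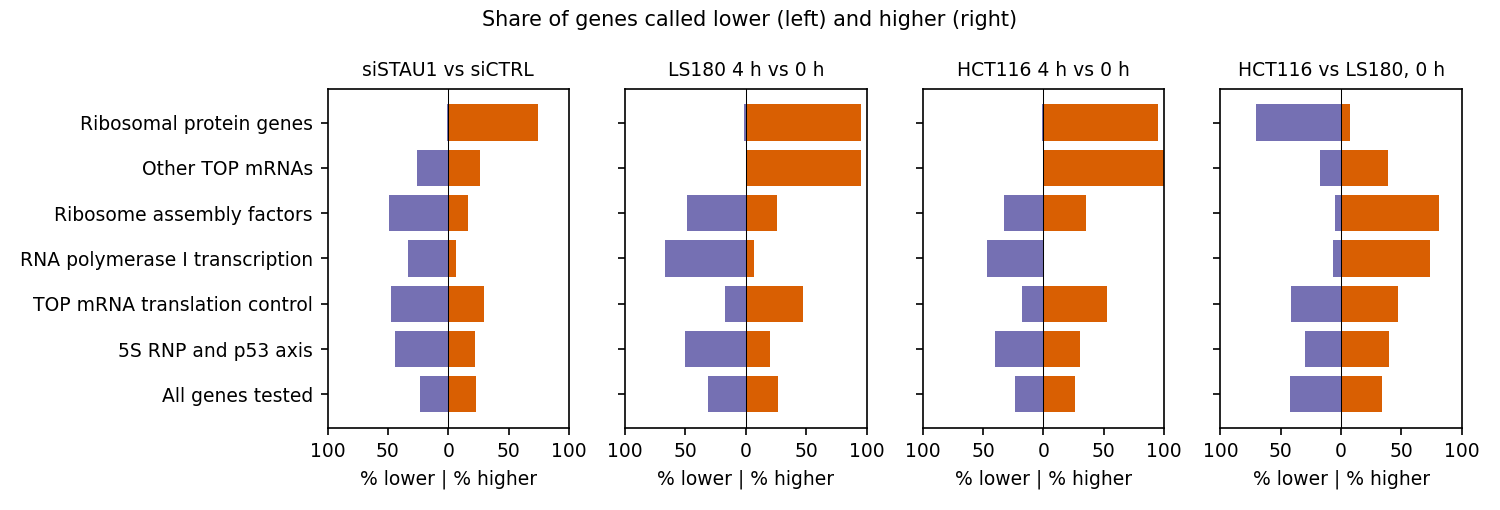
Percentage of genes called lower (left, violet) and higher (right, orange) on the x axis, for ribosomal protein genes, the 5 lists and all genes tested (y axis), in 4 comparisons. Ribosomal protein genes and other TOP mRNAs are mostly higher at 4 h in both lines, and ribosomal protein genes are mostly higher with siSTAU1.

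Features of the genes that the choice did not use were compared last. The 28 tested members whose gene holds a snoRNA gene (GENCODE 29) had a median of 0.56 in LS180 and 0.40 in HCT116 at 4 h, all 28 called higher in each line, and the 56 without had 0.59 and 0.41, with 52 called. With siSTAU1 those medians were 0.20 and 0.19. The isoform-weighted length that RSEM assigns to a gene moved slightly: in LS180 it was shorter at 4 h than at 0 h without overlap for 30 of 84 members (12% of all genes) and longer for 2 (6.51%). In HCT116 it was shorter for 37 (9.94% of all genes) and longer for 3 (7.38%). Among all genes with at least 100 counts in every library, 15.2% were shorter and 9.07% longer in LS180, and 12.9% and 10.7% in HCT116. Of the 83 members at that depth, 30 and 37 were shorter and 2 and 3 longer. Some of these differences were below 1 base, such as RPL39 in LS180 (401.4 to 401.3 bases). Over the 84 members the median ratio was −0.0019 in LS180 and −0.003 in HCT116 on the log2 scale. Among the genes with shifts larger than this median, named after their values were seen, were RPL28, from 647 ± 0.234 to 625 ± 4.68 bases in LS180, and RPL7L1, from 3487 ± 23.9 to 3322 ± 22.6 bases (SD, n = 3).

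Reads that match processed pseudogenes limit single genes. Rows named as pseudogenes of members took 1.66 to 1.83% of the counts of members and pseudogenes together in the siRNA libraries and 1.22 to 1.33% in the actinomycin D libraries. Adding them to their parents left 63 members higher with siSTAU1 and 80 at 4 h in each line. For RPL41 the sharing was large in the actinomycin D tables, where the row RPL41P1 held 31.1 to 33.7% of the counts of both in every library, against at most 0.0773% in the siRNA tables. The siSTAU1 rise of RPL41 was 0.46 with its pseudogene rows added.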

How the data were processed

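Gene tables of 22 libraries were used. RNA was purified on columns and made into stranded libraries, from polyA RNA for the siRNA experiment and from total RNA for actinomycin D, per the labels' protocols. The tools named are cutadapt, STAR 2.7 and RSEM 1.3.1, with builds hg38 (siRNA) and hg19 (actinomycin D), per the submitters' processing notes. Neither the annotation release nor the strand setting of the counting is given there. The authors' deposited tables hold RSEM expected counts, which divide reads that match several genes among them, TPM, and gene and effective lengths.

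Rounded expected counts went into edgeR 4.0.16 in R 4.3.3 (TMM, filterByExpr by group, quasi-likelihood test, two-sided), with Benjamini-Hochberg adjustment over every gene that passed the filter and 0.05 as threshold. The 4 siRNA libraries and the 18 actinomycin D libraries were fitted apart, for 8 comparisons in all, and a standard error is the absolute log2 change over √F. CPM are scaled by TMM. Deposited TPM were used for levels per length and for overlap between libraries. Members and lists were chosen with earlier results of these data known. Named genes were the up to 4 called members highest and lowest in each comparison, the paralog-like genes with their parents, the stalk, 5S-binding and other fixed genes, the highest and lowest by TPM, and up to 3 genes with the smallest adjusted p per list. Some of these members and list genes are not reported here singly but stay in every count. The lists were Other TOP mRNAs, Ribosome assembly factors, RNA polymerase I transcription, TOP mRNA translation control, and 5S RNP and p53 axis. The length and abundance ranges were chosen after the data were seen.

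Other settings tried were DESeq2 1.42.0, RLE size factors, no filter, effective length as an offset, pseudogene rows summed with their parents, total library size, a replicate block and each library left out, where a lone library was assumed to vary like the others. Added after the data were seen were fits without the HCT116 libraries numbered 1 and without the LS180 4 h libraries numbered 2 and 3. Same-numbered HCT116 libraries deviated together (r from 0.183 to 0.577 over genes), so their numbers were taken to pair them. The fits were tested on simulated data. Sequences are from RefSeq, and gene positions come from GENCODE 29 on GRCh38, by identifier.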

Additional observations from a re-analysis of the deposited data

How the results depend on the processing

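At 4 h the counts of members called higher were 79 to 82 in LS180 and 76 to 80 in HCT116 over every alternative run, from 80 in each. With siSTAU1 the count was 57 to 72 apart from single libraries left out, which gave 22 to 72, the lowest without the first siCTRL library. Leaving out 1 library at a time gave 29 to 74 higher and 0 to 1 lower in LS180 at 2 h, 21 to 42 higher in HCT116 at 2 h, and 1 to 82 lower for the line difference at 4 h, with 82 without the first LS180 library at 4 h. RLE size factors gave 80 higher in LS180 at 2 h, no filter 80 higher and 0 lower, and DESeq2 82 higher and 0 lower. Without the HCT116 libraries numbered 1, 21 were higher in HCT116 at 2 h. HCT116 against LS180 had 11 higher with no filter and 10 by DESeq2. The line difference at 4 h had 63 lower with no filter and 12 by DESeq2. Effective length as an offset gave 2 lower with siSTAU1 and 0 lower in HCT116 at 2 h and 4 h and in both line differences. Total library size gave 3 lower in LS180 and 2 in HCT116 at 4 h. The cause of these differences was not tested. With the replicate block 72 members were higher with siSTAU1 and 56 in LS180 at 2 h, and no count moved by over 1.5 times; same-numbered libraries had an r of −0.058 in the siRNA experiment and of −0.232 to 0.16 in LS180 under actinomycin D, so there the numbers were not taken as pairs. Under the pairing in HCT116 the counts were 50 and 80 higher, as without it.

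Among genes named, 20 of the alternative values changed sign. RPL36AL in LS180 at 4 h (−0.07) turned to 0.062 with RLE, 0.061 with DESeq2 and 0.049 with no filter, and ran from −0.10 to 0.11 with single libraries left out. In HCT116 (0.01) it turned to −0.023 with no filter, −0.11 with total library size and −0.0086 without the libraries numbered 1, and ran from −0.026 to 0.023 with single libraries left out. RPL7L1 in LS180 at 4 h turned to −0.18 with total library size and ran from −0.0029 to 0.18 with single libraries left out. It turned to 0.0004 with RLE and DESeq2 and 0.049 with effective lengths in HCT116 at 4 h, and, in HCT116 against LS180, to 0.0050 with RLE, 0.0049 with DESeq2 and 0.049 with no filter. RPS27A with siSTAU1 ran from −0.022 to 0.12 with single libraries left out. Depth limits RPL39L, with 373 counts over the LS180 libraries at 0 h.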
